A study of Oryza sativa with 2 samples.

Results

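PORA and SGR are a pair of rice genes from opposite ends of the life of chlorophyll: PORA acts in its synthesis and SGR in its breakdown. They were picked from earlier results of these arrays because their spots differed between the arrays, so their values are given as a description and no test was applied to them. A gene was taken when its symbol or a synonym, without a leading Os, was PORA or SGR and its spot was annotated with 1 gene; 2 genes of the 15798 measured met this, each with 1 probe. In the annotation PORA is LOC4337415 on chromosome 4 and SGR is LOC4347672 on chromosome 9.

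Rice (Oryza sativa) seedlings were grown for 7 days in MS medium, a standard plant culture medium, and exposed to 5 µM jasmonic acid, a plant hormone of wounding and defence; unexposed seedlings were the control. The titles speak of shoots and the design text of whole seedlings, and the labels also differ on whether 7 days is the age or the length of exposure; no cultivar is named in the sources used here. Total RNA of both groups was hybridised together on 2 two-colour oligonucleotide arrays, with the control in Cy3 and the treated RNA in Cy5 on array 1 and the dyes exchanged on array 2. Both arrays carry the same replicate number, so they count as 1 replicate: no p-value and no spread between plants can be given.

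Chlorophyll is built from glutamate through 5-aminolevulinic acid and a chain of porphyrins into which magnesium is inserted; protochlorophyllide oxidoreductase (POR) then carries out the step that needs light in flowering plants, turning protochlorophyllide into chlorophyllide. PORA is the form best known from seedlings that are still greening, and PORB from tissue that is already green. SGR (STAY-GREEN) encodes the enzyme that removes magnesium from chlorophyll a at the start of breakdown, and plants that lack it keep their green colour as leaves age. Jasmonates are known for promoting leaf yellowing and the loss of chlorophyll.

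The deposited value of a spot is the log10 of a ratio of its channels, given here as log2. No source states which channel is the numerator. A gene whose ratio turns over between the arrays follows the RNA if the numerator is the same dye on both arrays; such a gene is described by its swap mean, the average of the array 1 value and the array 2 value after turning the sign of the latter. With Cy5 as numerator on both arrays a positive swap mean means more signal from treated RNA, with Cy3 it means less, and if both columns were instead treated over control the swap mean would hold effects of the dye and the plain mean those of the treatment. The direction is therefore not settled, and every signed swap mean below changes sign with the other dye as numerator. The link from spots to genes is an ordering of the spots inferred from the values themselves, and no source states it.

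PORA stood well above 1 on array 1 and well below 1 on array 2. Its log2 ratio on array 1 was 0.97, a 1.96-fold difference between the channels, and −1.13 on array 2, a 2.19-fold difference the other way. The swap mean was 1.05, or −1.05 with the other dye as numerator, a size of 2.07-fold. The plain mean of the arrays was −0.08, or 0.20 above the plain mean of the median spot. In RNA of whole tissue a change in the number of cells that hold a transcript and a change in the RNA per cell cannot be told apart.

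SGR showed the same turn with a smaller size and less balance between the arrays. Its log2 ratio on array 1 was 0.57, a 1.48-fold difference, and −1.05 on array 2, a 2.07-fold difference the other way. The swap mean was 0.81, or −0.81 turned, a size of 1.75-fold, and the plain mean was −0.24, or 0.04 above that of the median spot. The members were nearly level on array 2, where PORA lay below SGR by 0.08, and lay further apart on array 1, where PORA was higher by 0.40.

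The arrays are not centred: the median log2 ratio of all spots was −0.30 on array 1 and −0.32 on array 2. Relative to these medians PORA was at 1.27 and −0.82 and SGR at 0.87 and −0.73. Centred in this way SGR became more even between the arrays and PORA less so, and the turn between the arrays remained in both.

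**Figure D1:**
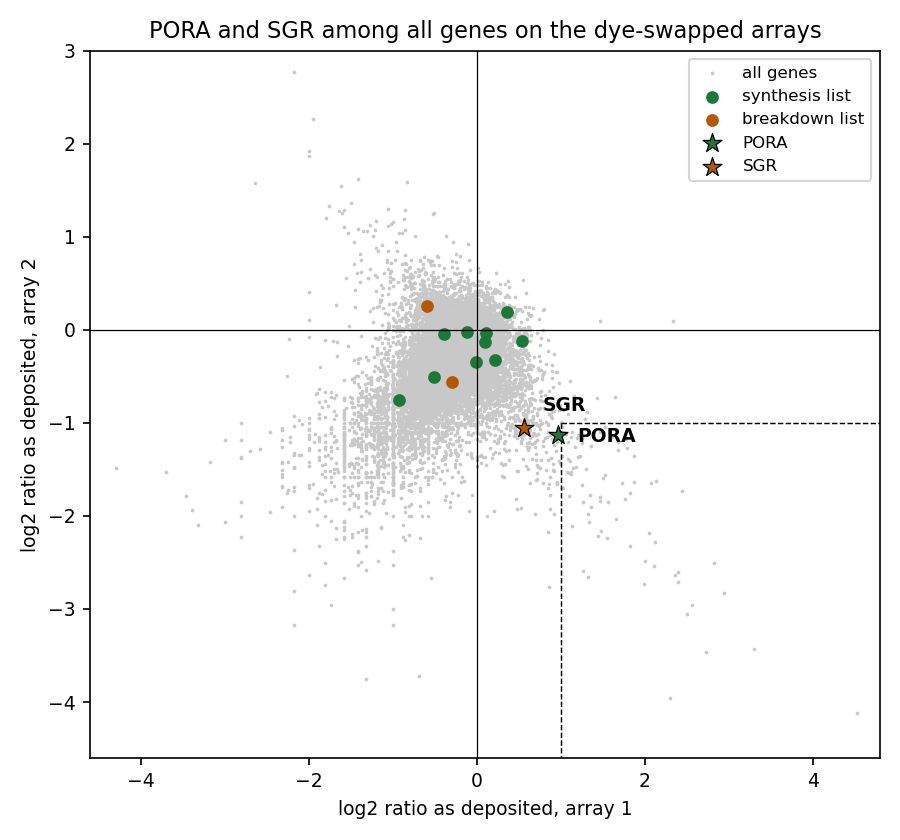
Each point is 1 gene, by its deposited log2 ratio on array 1 (horizontal axis) and on array 2 (vertical axis); green points are the chlorophyll synthesis list, orange points the breakdown list, and stars PORA and SGR. The dashed corner holds genes past 2-fold on both arrays, up on array 1 and down on array 2; PORA at 0.97 lies just outside it and SGR at 0.57 further out, both apart from the other genes of their lists.

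Among all genes measured the members lay towards one end of the swap mean, the upper end as signed here and the lower end with the other dye as numerator. Counted from that end PORA ranked 128 of 15798 and SGR 214, so that 0.81% and 1.35% of genes lay as far out or further. By the plain mean, the reading for columns that hold treated over control, PORA ranked 3316 from the top and SGR 7372. Neither passed 2-fold on both arrays in opposite directions, a call made for 0.500% of genes on this side, because the deposited array 1 ratio of each fell short. At 1.5-fold, a log2 ratio of 0.58, PORA passed on both arrays and SGR missed on array 1, while 1.40% of all genes passed on this side. With the median of each array subtracted, both passed 1.5-fold on both arrays, as did 1.55% of genes, and neither passed 2-fold, as 0.551% did: PORA then passed on array 1 and fell short on array 2. By the swap mean alone both passed 1.5-fold, as did 2.79% of genes, and PORA passed 2-fold, as did 0.874%. Ratios above 1 on array 1 and below 1 on array 2, as in both members, were found in 14.7% of genes, and the opposite turn in 12.6%. Since these values chose the members, nothing is read from their counts.

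The whole-number terms behind the ratios were far larger for PORA than for SGR. Taken to the power of 10, each deposited value is a ratio of whole numbers, whose reduced terms give a lower bound on the channel signals, so the signals themselves are not compared between the probes. For PORA the ratio was 6751 to 3444 on array 1 and 7516 to 16489 on array 2. For SGR it was 40 to 27 on array 1 and 55 to 114 on array 2. A change of 1 unit in the smaller term would move the SGR ratio by 0.05 on array 1 and 0.03 on array 2. The PORA ratio would move by 0.00042 and 0.00019. These shifts are small beside the ratios themselves but cover rounding only. Error from background or other sources was not estimated, so they do not show how secure the SGR ratio is.

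Spot brightness, the mean log2 of these reduced terms over both arrays, was 12.8 for PORA and 5.67 for SGR, against a median of 5.47 over genes. PORA was brighter than 99.9% of genes and SGR than 54.8%. Brightness depends on the probe as well as on the transcript, so it serves here as a guide to measurement error and does not rank the transcripts.

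The spots closest in brightness give a scale for these values. The 200 closest to PORA ranged in brightness from 10.6 to 14.7, far more widely than the 200 closest to SGR, from 5.65 to 5.69. Near PORA the spread (scaled median absolute deviation) was 0.37 for the swap mean and 0.17 for the plain mean. Of these 200 spots 11, PORA among them, had a swap mean as large as its own. Near SGR the spread was 0.16 for the swap mean and 0.19 for the plain mean, and 2 of the 200, SGR among them, reached its swap mean. The ratios of the arrays had a Pearson correlation of −0.80 across the spots near PORA and 0.58 across those near SGR; spots share the arrays and their dyes and are not replicates. Ratios on opposite sides of 1 on the arrays were found at 145 of the 200 spots near PORA and at 62 of the 200 near SGR. Over all genes they were found in 4308 of 15798. As deposited, a turn between the arrays was thus the common case among the bright spots near PORA. Near SGR it was the less common case, as over all genes. These counts are taken around 1 on arrays that are not centred. The median plain mean was 0.01 near PORA and −0.22 near SGR, and the part of this offset in the counts was not tested.

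**Figure D2:**
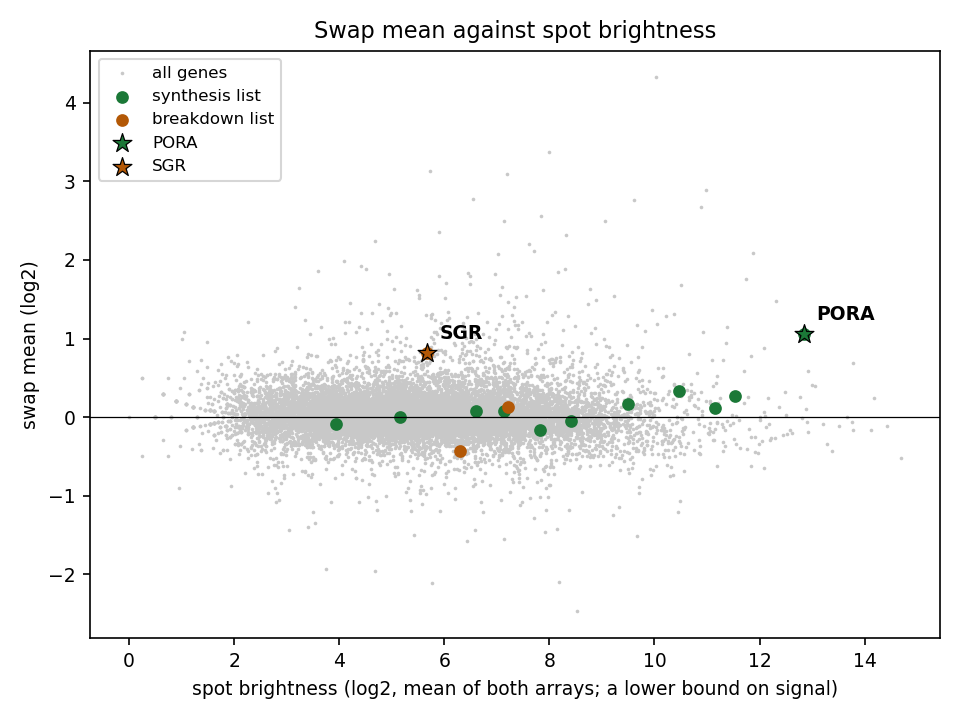
Each point is 1 gene, by spot brightness (log2, mean of both arrays, a lower bound on signal) and swap mean (log2); green points are the synthesis list, orange points the breakdown list, and stars the members. PORA at 12.8 sits among the few very bright genes and SGR at 5.67 in the dense middle, with swap means of 1.05 and 0.81.

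The surroundings of the spots on the arrays lay near the middle of all spots. The 120 spots around PORA, within 5 rows and columns on the grid, had a median of −0.34 on array 1 and −0.31 on array 2 (log2), close to the medians of the whole arrays. Around SGR the medians were −0.32 and −0.31. In each neighbourhood 1 of the 120 spots had a swap mean as large as that of the member in its centre. The neighbours along the chromosome did not follow the members either: the 5 nearest measured genes on each side of PORA had swap means from −0.37 to 0.14, and those of SGR from −0.42 to 0.46.

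PORA was compared with the other genes of chlorophyll synthesis that were found by symbol. Only 2110 of the 15798 measured genes carry a name, so genes of the pathway without a matching symbol are missed. From 44 symbols looked for, the list held 11 genes with a median swap mean of 0.08, against 0.01 over all genes. Of the 11, 7 lay above the median of all genes. Without PORA the 10 others ranged from −0.17 to 0.33, so PORA stood 0.72 above the next gene. It was the 1 gene of the 11 that passed 1.5-fold on both arrays, in opposite directions, on either side. Of all genes 1.40% passed on the side of PORA and 0.513% on the other. Since PORA was chosen for its difference between the arrays and the others were not, its distance from them is a description only.

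As deposited, PORB, the other protochlorophyllide oxidoreductase, turned the same way as PORA with a much smaller size. Array 1 gave it a log2 ratio of 0.21 and array 2 one of −0.32, which makes a swap mean of 0.27, on a spot of brightness 11.5. The medians of all spots were −0.30 on array 1 and −0.32 on array 2. Relative to them PORB lay above the middle on array 1 and at about the middle on array 2. The arrays could not show whether the probes tell the related transcripts apart, because probe sequences were not used here.

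By the swap mean the early steps of the pathway moved little. GluTR, glutamyl-tRNA reductase, the first committed step, had −0.39 on array 1 and −0.04 on array 2, and its swap mean of −0.17 was the lowest of the list. GSA, the aminotransferase that makes 5-aminolevulinic acid, had −0.12 and −0.02 as the mean of 2 probes. HEMB, which joins 2 molecules of 5-aminolevulinic acid, had 0.53 and −0.12, a swap mean of 0.33 and the next largest after PORA. HEMD, uroporphyrinogen III synthase, lay above 1 on both arrays with 0.36 and 0.19. Against a median of −0.26 over all genes, plain means were −0.22 for GluTR, −0.07 for GSA, 0.21 for HEMB and 0.28 for HEMD. PORA was at −0.08 by that measure. Of these early-step genes HEMB alone turned over between the arrays as deposited, and most of its size came from array 1. Relative to the array medians of −0.30 and −0.32 HEMB lay above the middle on both arrays.

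Of the magnesium chelatase, which inserts magnesium into the porphyrin, 3 subunit genes were measured. CHLH, the porphyrin-binding subunit, had 0.11 on array 1 and −0.04 on array 2, and CHLD had −0.003 and −0.35. CHLI had −0.93 and −0.76, below 1 on both arrays, on a dim spot of brightness 3.93. Their swap means of 0.08, 0.17 and −0.08 are small beside the single values of PORA and SGR, and no difference between the subunits is read from them.

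The last steps, which attach the phytol tail, also lay near the middle of all genes by the swap mean. CHLP, the geranylgeranyl reductase that makes the phytyl chain, had 0.09 on array 1 and −0.13 on array 2, which average to a swap mean of 0.11. CHLG, chlorophyll synthase, had −0.51 on each array and a swap mean of 0.002.

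**Figure D3:**
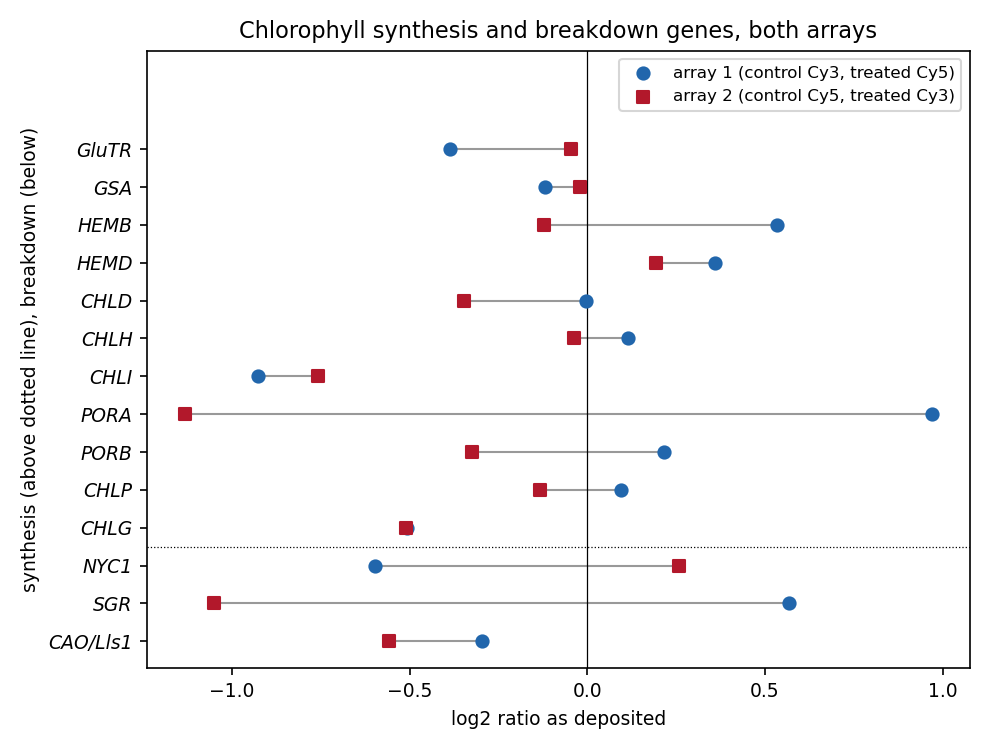
Deposited log2 ratios (horizontal axis) of the genes of chlorophyll synthesis, above the dotted line and in the order of the pathway, and of breakdown, below it; circles are array 1, squares array 2, and a line joins the arrays of a gene. PORA, from −1.13 to 0.97, and SGR, from −1.05 to 0.57, have the longest lines, and NYC1 crosses 0 the other way.

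SGR was compared with the other genes of chlorophyll breakdown that were found by symbol. From 19 symbols looked for, the list held 3 genes in all, and measured genes without a matching symbol are missed. NYC1, chlorophyll b reductase, which begins the conversion of chlorophyll b to the a form, stood on the opposite side from SGR: its log2 ratio was −0.60 on the first array and 0.26 on array 2, and its swap mean −0.43. The third entry, LOC4349433, is listed under both Lls1, a name from breakdown, and CAO, the oxygenase that makes chlorophyll b, so its place in the list is unsure; it had −0.30 and −0.56, a swap mean of 0.13. The list median of 0.13 is that of a list of 3 genes spread from −0.43 to 0.81, and SGR stood 0.68 above the next. As with PORA, the values chose SGR, so this gap is a description only.

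The list set by symbol for proteins that bind chlorophyll held 4 genes with a median swap mean of 0.07. Of these 1, CAB2R, reached a swap mean of 1.5-fold in size, against 2.79% of all genes above and 1.25% below. CAB2R, a light-harvesting chlorophyll a/b-binding protein, had log2 ratios of 1.47 on array 1 and 0.09 on array 2, so its swap mean of 0.69 came from array 1 and its ratio did not turn over. CAB1R, of the same family, had −0.08 and −0.01. The remaining entries came in under the symbols OHP1 and OHP2 with swap means of −0.14 and 0.17. Their further gene names, AHP, HP and HPt, are those of histidine phosphotransfer proteins. They were thus matched by symbol only and are not read here as chlorophyll-binding, although the list median includes them. By name, CAB1R and CAB2R alone belong to this list.

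Regulators of greening were measured in 5 genes and none reached a swap mean of 1.5-fold in size, against 2.79% of all genes above and 1.25% below. The phytochrome gene PHYC, a red light receptor, had 0.26 on array 1 and −0.26 on array 2, and PHYA had 0.16 and −0.06. GLK2, of the factors that switch on photosynthesis genes in developing chloroplasts, had −0.17 and −0.03. The list median was −0.001.

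The 4 genes of the senescence list all had small positive swap means, from 0.02 to 0.21. NAC2, a NAC factor, led with −0.33 on array 1 and −0.75 on array 2, followed by EIL1, a factor of ethylene signalling, with 0.13 and −0.14, and the sugar transporter SWEET4 with 0.42 and 0.16. None of the 4 reached a swap mean of 1.5-fold, against 2.79% of all genes above and 1.25% below. As deposited, EIL1 was the 1 gene of the list whose ratio turned over between the arrays, against 14.7% and 12.6% of all genes in each direction. Relative to the array medians of −0.30 and −0.32 EIL1 lay above the middle on both arrays.

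Markers of tissue were checked because the labels disagree on shoot or whole seedling. The 4 green-tissue markers, CAB1R, CAB2R, PETC and RCA, had brightnesses from 12.0 to 14.7. Of the 7 root markers 3 reached the median brightness of genes, with a range from 2.74 to 8.98, and of the 7 seed markers 1 did. The green-tissue markers had swap means from −0.65 to 0.69 the root markers from −0.18 to 0.16 and the seed markers from −0.68 to 0.47. The lowest seed marker, the amylase gene AMY3D, singled out after its value was seen, was the mean of 2 probes, at −1.32 and −0.05, with a mean brightness of 3.30. The green-tissue markers were split: PETC and RCA, at −0.65 and −0.52, lay on the opposite side from PORA and CAB2R, at 0.69, on the same side. CAB1R was at −0.03. The part of these markers in the value of PORA was not tested.

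The genes whose ratios were most like those of the members were sought by the Euclidean distance over the log2 ratios of the 2 arrays, among 1190 named genes at or above the median brightness. Closest to PORA were the chitinase Cht4, at a distance of 0.05 with 1.01 on array 1 and −1.10 on array 2, then AT15 at 0.08, the coenzyme A ligase 4CL3 of phenylpropanoid synthesis at 0.14, the glycolate oxidase family member GLO4 at 0.22 and CAD2, a cinnamyl alcohol dehydrogenase, at 0.23. Closest to SGR were the expansin EXPB2 with 0.64 and −1.08 at a distance of 0.07, the homeobox gene Hox13 at 0.08, PMEI8 at 0.09, the chitinase Cht5 at 0.10 and the glutathione S-transferase GST-II at 0.10. With 2 arrays of 1 replicate a close ratio pair is a description of these arrays only.

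**Figure D4:**
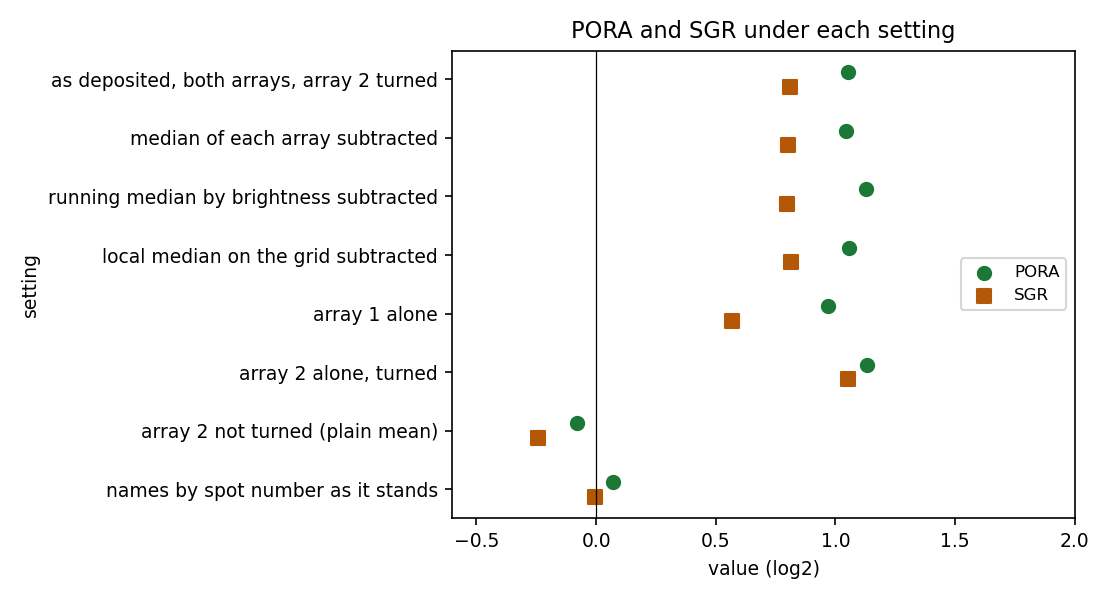
PORA (circles) and SGR (squares) under each setting, as log2 values; the first 6 settings from the top give swap means or single arrays, followed by the plain mean and by the spots that the deposited numbers would name. The swap mean stays near 1.05 for PORA and 0.81 for SGR under each correction, single arrays give 0.97 to 1.13 and 0.57 to 1.05, and the plain means of −0.08 and −0.24 lie below 0 but above the −0.28 of the median spot.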

How the data were processed

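The 2 arrays compared RNA of seedlings exposed to jasmonic acid with control RNA. The deposited values are log10 ratios, 1 per spot for 22575 spots; per the labels, images were read with a GenePix scanner and normalized in GeneSpring (version 4), while any background correction or filter is not given in the sources used. Values were multiplied to log2, with no centring. Reduced whole-number ratios were recovered as the simplest fraction within 6e-10 (log10), and the recovery was tested on simulated data. Spots were linked to features by reading the table as 215 lines of 105, then transposing it and reversing both axes. This put 0 of 228 control-like spots (both log2 ratios below −2.2, brightness above 4.5) on annotated features, against 194 by spot number. The control-like spots are defined by the same values from which the ordering was inferred, so these counts are no independent check. Other readings of the grid are not reported here. Of 17860 annotated features, 17839 have 1 gene, 21 several; 4715 spots have none. All 17839 matched a RefSeq gene number (ASM3414082v1, used for names, chromosomes and gene order). Probes of a gene were averaged. The planned phrases in annotated gene names could not be applied, so symbols alone set the lists. Named were the members, all genes of the chlorophyll synthesis and breakdown lists, the 3 largest swap means of the chlorophyll binding, greening and senescence lists, and the 5 nearest genes. Members and lists were chosen with earlier results of these data known. The number of arrays limits the precision. Python 3.11.15, numpy 2.4.6, pandas 2.3.3 and scipy 1.17.1 were used.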

Additional observations from a re-analysis of the deposited data

How the results depend on the processing

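With medians subtracted per array, by brightness or around the spot, or with each array alone, the PORA swap mean lay between 0.97 and 1.13 and that of SGR between 0.57 and 1.05; SGR was 0.57 with array 1 alone and 1.05 with array 2 alone. Centred and divided by each array's spread they were 2.72 and 2.07 spreads. Without turning array 2 the values changed sign, to −0.0812 for PORA and −0.24 for SGR, against a plain mean of −0.28 at the median spot, so both lay above the middle, by 0.20 and 0.04. After subtracting each array's median, a check added after seeing the data, 2 members in place of 1 passed 1.5-fold on both arrays and 0 passed 2-fold, as before. By spot number as it stands the spots would read 0.0727 and −0.0057. The 79 genes past 2-fold on both arrays were 221 at 1.5-fold, 25 at 3-fold and 82 to 97 otherwise. The synthesis list median of 0.08 was −0.0695 with array 2 not turned and 0.07 to 0.13 otherwise. The breakdown list median of 0.13 was −0.30 with array 1 alone, 0.56 with array 2 alone and −0.24 with array 2 not turned. In an alternative chosen after seeing the data it was −0.15 without SGR. The list held 3 genes with SGR, and the causes of these changes were not tested. Lists by symbols alone were not run apart, since symbols alone set them. No paired analysis was possible because both arrays are 1 replicate.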
